A study of Mus musculus with 27 samples.

Results

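mK4 is a mouse cell line made from the metanephric mesenchyme, the embryonic tissue that gives rise to the nephrons of the kidney. The comparison here set 3 RNA-seq libraries of Runx1KO cells directly against 3 RNA-seq libraries of ZebDKO cells, 6 of the 27 libraries of the series, and asked which changes that follow the loss of Runx1 do not come with the loss of the Zeb proteins. Runx1KO cells are a subline of mK4 in which exon 3 of Runx1 was cut out with a pair of guide RNAs and Cas9, and ZebDKO cells are a subline in which exon 2 of Zeb1 and exon 1 of Zeb2 were cut out in the same way. The 3 libraries of parental mK4 cells (control, labelled WT) were used to say which of the lines differed from its parent. All cells were unstimulated cultures in standard medium grown in triplicate wells, so replicates are wells of a line. How many clones were sequenced is not stated, and a line stands for at most a few clones.

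Runx1 is a DNA-binding factor of the Runt family that works with its partner Cbfb and can raise or lower transcription. Zeb1 and Zeb2 are zinc finger repressors that bind E-boxes of the form CAGGTG and hold down genes of epithelial cells, and they are best known for their part in the transition between epithelial and mesenchymal states. In the developing kidney the mesenchyme turns into epithelium under signals such as Wnt4, and it sends Gdnf to the ureteric bud.

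Guides for Runx1 and Zeb2 are shown, those for Zeb1 are not, because they fix what a whole-gene measurement can and cannot see. The Runx1 guides matched chr16:92695999-92696018 and chr16:92695721-92695740 of mm9, both on the plus strand, inside the Runx1 gene (chr16:92601712-92826311, minus strand), the first in an untranslated and the second in a coding stretch of an exon of GENCODE vM1. The Zeb2 guides matched chr2:44965374-44965393 on the plus strand and chr2:44965721-44965740 on the minus strand, inside the Zeb2 gene (chr2:44839154-44972915, minus strand) and in no exon of that annotation. Each guide had 1 perfect match in mm9, and cuts at the usual Cas9 position would remove 278 bases of Runx1 and 333 bases at Zeb2. Capitals mark the PAM next to each match in the genome, which is not part of the guide.
Runx1 gRNA 1: cacaacaagccgattgagtaAGG
Runx1 gRNA 2: aggagtaccttgaaagcgatGGG
Zeb2 gRNA 1: ccggtccagcggccgcgcgtGGG
Zeb2 gRNA 2: cggcccgcgcgcgtttcaatGGG

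The targeted genes were examined first. Levels are given in TPM, in which the reads of a gene are divided by its length and put on a library total common to all samples. Runx1 stood at 30.3, 30.1 and 28.5 TPM in Runx1KO, at 9.4, 10.5 and 10.4 in ZebDKO and at 18.7, 15.6 and 17.9 in control. Runx1 RNA was therefore higher in the line that lacks the exon than in either other line, and since the removed bases are a small stretch of the gene the whole-gene level does not test the knockout. Zeb1 stood at 0.1, 0.2 and 0.2 TPM in Runx1KO against 16.8, 16.6 and 14.8 in ZebDKO and 15.1, 14.2 and 15.6 in control. Zeb1 RNA was thus nearly absent in Runx1KO and at the control level in ZebDKO, so the whole-gene level does not test that deletion either. The study checked the deletions by PCR and the loss of Runx1 and Zeb1 protein by Western blot. It had no working antibody for Zeb2. Zeb2 stood at 0.2 TPM in each Runx1KO library, at 1.7, 1.8 and 1.6 in ZebDKO and at 5.5, 4.9 and 5.2 in control, below the control in both lines and lowest in Runx1KO. The differences between Runx1KO and ZebDKO were 1.47 for Runx1 (adjusted p = 4.45e-07), -3.87 for Zeb1 (3.98e-08) and -1.17 for Zeb2 (1.25e-05) by limma with Benjamini-Hochberg adjustment. The partner Cbfb differed by 0.33 on the log2 scale, with 73.0 ± 1.47 TPM (SD, n = 3) in Runx1KO and 58.0 ± 2.1 in ZebDKO. Runx2, the other family member present, had 3.73 ± 0.153 TPM in Runx1KO and 3.30 ± 0.2 in ZebDKO (log2 difference 0.14, SE 0.068, adjusted p = 0.0965 by limma with Benjamini-Hochberg adjustment), and Runx3 was at most 0.2 TPM in these 6 libraries and was not tested.

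Of 24953 genes in the table, 13071 reached 1 TPM in 3 or more of those 6 libraries and were tested with limma on log2(TPM+1). A gene was called when its difference passed 1 on that scale (2-fold) at a Benjamini-Hochberg adjusted p under 0.05. By this rule 2065 genes were called, 15.8 percent of those tested, with 1203 higher in Runx1KO (9.20 percent) and 862 lower (6.59 percent). The lower genes reached further: 266 were past 4-fold against 224 of the higher. With libraries of one line all beyond those of the other, the share of tested genes was 81.7 percent, and 2057 of the called genes were among them. Most of the transcriptome was close between the lines, and 58.0 percent of the tested genes differed by at most 0.5. The median difference over all tested genes was 0.15 in favour of Runx1KO, and the split of calls follows that shift. After median-ratio scaling of the libraries the median was 0.00070 and the calls were 918 higher and 1053 lower, and after quantile normalization they were 907 higher and 1000 lower, so the share of calls that were higher went from 58.3 percent to 46.6 and 47.6 percent. Which direction holds more genes thus depends on the scaling.

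Replicate libraries were close to each other, with Pearson correlations of log2(TPM+1) across the tested genes of 0.994 to 0.995 within a line against 0.917 to 0.920 between Runx1KO and ZebDKO. The 3 ZebDKO libraries listed fewer genes at 0 (8268 to 8744) than the Runx1KO (9236 to 9254) and control libraries (9283 to 9352), while all 9 had 12541 to 12697 genes at 1 TPM or more. The sources describe the RNA and library preparation of the ZebDKO libraries in other words than that of the Runx1KO and control libraries, and name no batch or date. Line, clone and any difference in library preparation cannot be told apart in this comparison, and in bulk RNA fewer cells of a kind and less RNA per cell cannot be told apart either. The cells were checked against markers of the metanephric mesenchyme. Osr1, Eya1, Sall1, Pax2, Gdnf and Hoxa11 were present in control cells at 12.7 to 313 TPM on average, while Six2, Wt1, Cited1, Itga8 and Hoxd11 were at or under 0.767 TPM in all lines, so genes of the mesenchyme were present in part. Of 13 immune cell genes, 5 were tested and the summed level of the list was 168 to 179 TPM in Runx1KO and 108 to 119 in ZebDKO, and 12 endothelial genes summed to at most 9 TPM in those libraries.

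The controls were then used to say which line had moved, a line counting as moved when its mean log2(TPM+1) lay more than 1 from the control mean. On that scale a gene of low level can change several-fold and still not count as moved. Of the 2065 called genes, 606 differed because Runx1KO alone had moved (381 of them higher in Runx1KO, 225 lower) and 690 because ZebDKO alone had moved (349 at a lower level in ZebDKO than in control, 341 at a higher). In 215 genes both lines had moved the same way but to different extents, in 59 they had moved in opposite ways, and in 495 neither had moved by that much. When moved was taken to mean called against control by limma, 604 genes differed by Runx1KO alone and 693 by ZebDKO alone. Runx1KO and ZebDKO are set against the same 3 control libraries in these classes, so an error in the control moves both.

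**Figure D1:**
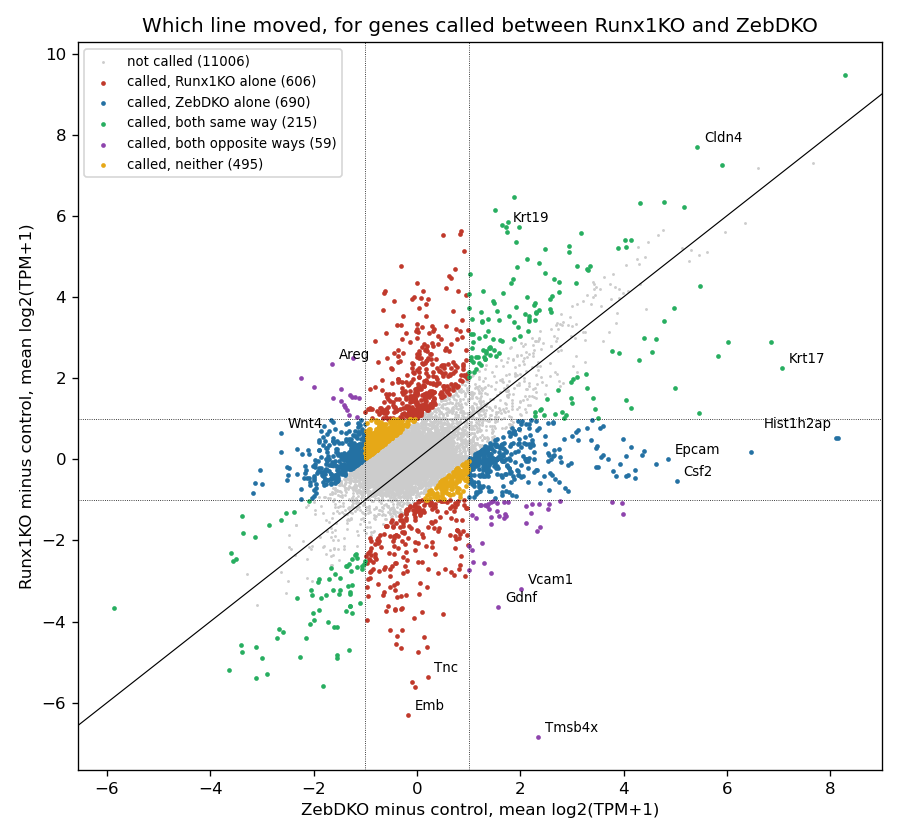
Each point is 1 of the 13071 tested genes, placed by the mean log2(TPM+1) of ZebDKO minus control (x axis) and of Runx1KO minus control (y axis). Colours give the class of the 2065 called genes, dotted lines mark a difference of 1 and the solid line marks equal change in both lines; Tmsb4x, Emb and Tnc lie far below the line and Cldn4, Krt19 and Areg above it.

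The most extreme gene was Tmsb4x, which encodes thymosin beta 4, a small protein that binds actin monomers. It was listed at 0.3, 0 and 0 TPM in Runx1KO, at 641.9, 642 and 635.9 in ZebDKO and at 111.8, 134.4 and 128.7 in control. The groups lay far apart, with control between the lines, and the difference was -9.20 (SE 0.10, adjusted p = 8.48e-09 by limma).

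Genes nearly absent from Runx1KO and at the control level in ZebDKO were the clearest cases of a change that ZebDKO cells did not share. Clone and genotype cannot be told apart for them. Among them, Emb lies next to a run of genes high in Runx1KO at the end of chromosome 13, described below. Emb, a cell adhesion protein that accompanies monocarboxylate transporters, stood at 0.1, 0 and 0.1 TPM in Runx1KO, 74.6, 77.6 and 70.4 in ZebDKO and 83.7, 80.6 and 85.8 in control. Tnc, the extracellular matrix protein tenascin C, stood at 1.3, 1.1 and 1 TPM in Runx1KO, 97.6, 106 and 97 in ZebDKO and 89.4, 80.8 and 89.8 in control. Igfbp4, which binds insulin-like growth factors, stood at 0.6, 0.3 and 0.6 TPM in Runx1KO, 59.9, 57.7 and 66.5 in ZebDKO and 63.3, 67.4 and 66.7 in control. In each of these the ZebDKO libraries lay close to the control libraries and no Runx1KO library reached 2 TPM. Gxylt2, a xylosyltransferase that modifies Notch, stood at 0.3, 0.2 and 0 TPM in Runx1KO and at 54, 55.9 and 52.6 in ZebDKO, with control at 57.6, 53.2 and 55.8. Ptgs2, the inducible cyclooxygenase, had 3.77 ± 0.473 TPM in Runx1KO, 109 ± 4.33 in ZebDKO and 98.9 ± 5.22 in control. The differences of these genes were -6.14 for Emb, -5.57 for Tnc, -5.38 for Igfbp4, -5.57 for Gxylt2 and -4.53 for Ptgs2, with SE of 0.0645 to 0.0983 and adjusted p from 7.91e-09 to 2.88e-08 by limma.

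The study names a set of genes as examples of Runx1 dependence. Of these 9 genes, 8 were called lower in Runx1KO than in ZebDKO, against 6.59 percent of all tested genes, with a median difference of -2.69. The set was chosen on Runx1KO libraries of this series, so its direction is not independent evidence. Tnc, Igfbp4, Lef1 and Pak3 were in the class in which Runx1KO alone had moved. Lef1, a transcription factor of the Wnt pathway, stood at 0.1, 0.1 and 0.2 TPM in Runx1KO, 5.8, 5.4 and 6.7 in ZebDKO and 9.4, 8.4 and 9.2 in control, and Pak3, a kinase that acts downstream of Rac and Cdc42, at 0.1 TPM in each Runx1KO library and 5.8 to 6.5 in ZebDKO. Osr1, Inhbb and Zfp810 had moved down in both lines and further in Runx1KO. Osr1, a transcription factor of early kidney mesenchyme, stood at 0.3, 0.5 and 0.4 TPM in Runx1KO, 18.7, 18.9 and 17.1 in ZebDKO and 70.9, 64.1 and 64.3 in control. Inhbb, a subunit of activin B, had 0.133 ± 0.0577 TPM in Runx1KO, 4.53 ± 0.586 in ZebDKO and 46.6 ± 1.97 in control, and Zfp810 was listed at 0 in all Runx1KO libraries and at 5.4, 4.6 and 4.4 in ZebDKO. Only Twist2, a mesenchymal transcription factor, was not called, with 351 ± 4.37 TPM in Runx1KO and 570 ± 25.6 in ZebDKO (log2 difference -0.70).

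Gdnf, the signal from the mesenchyme to the ureteric bud, was the example that went in opposite directions. It stood at 0.1 TPM in each Runx1KO library, at 38.6, 41.4 and 39.4 in ZebDKO and at 13.1, 11.4 and 13.6 in control, so that every ZebDKO library lay above every control library and every Runx1KO library below. The difference was -5.21 (SE 0.055, adjusted p = 7.91e-09 by limma).

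**Figure D2:**
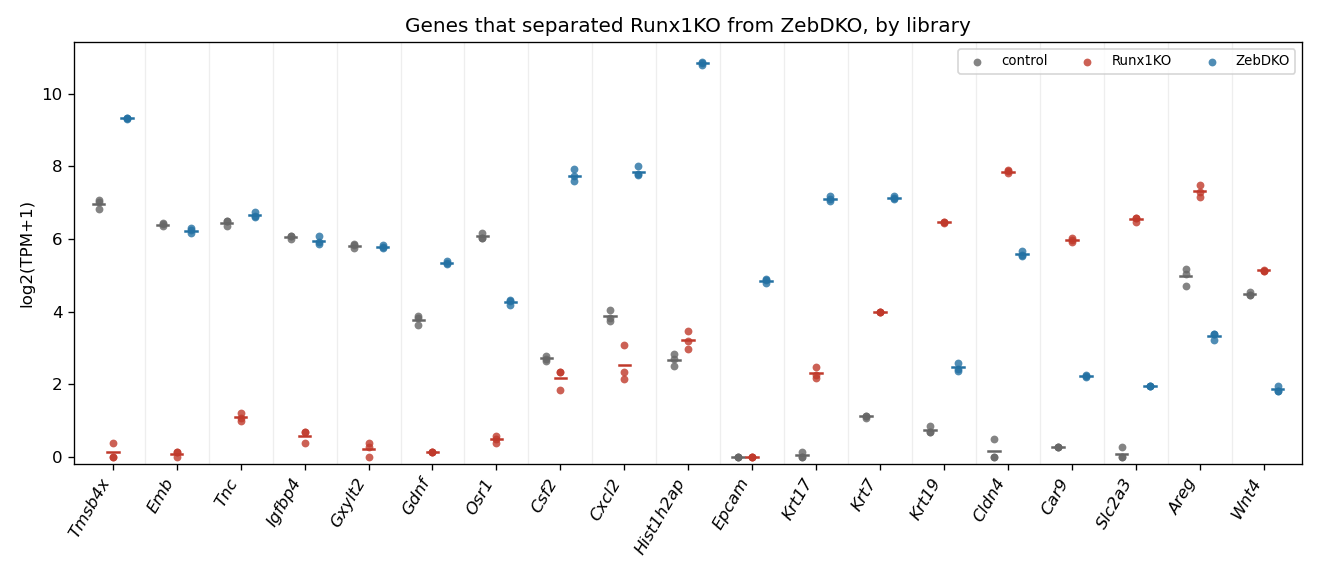
Points are the log2(TPM+1) of each library and bars the mean of the 3 libraries of a line, for 19 genes that separated Runx1KO from ZebDKO. Runx1KO lies near 0 for Tmsb4x to Osr1, ZebDKO alone is high for Hist1h2ap and Epcam, and Runx1KO is highest for Krt19 to Wnt4.

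List counts here and below are to be read beside the 9.20 percent of all tested genes called higher and the 6.59 percent called lower. Extracellular matrix genes were called lower in Runx1KO more often than higher. Among 17 tested collagen genes 7 were called lower and 1 higher, with a median of -0.64 beside 0.15 for all tested genes. Col5a2, a fibrillar collagen, stood at 15.3, 13.2 and 13.5 TPM in Runx1KO, 150.8, 158.3 and 149.3 in ZebDKO and 148.8, 148.1 and 149.9 in control, so that only Runx1KO had moved. Col12a1, which decorates collagen fibrils, had 2.83 ± 0.231 TPM in Runx1KO and 31.1 ± 4.29 in ZebDKO, with 46.5 ± 5.35 in control. Col6a2, a chain of collagen VI, had moved down in both lines, to 2.8 ± 0.1 TPM in Runx1KO and 37.6 ± 1.35 in ZebDKO from 113.7, 108.6 and 113.7 in the control libraries. The 1 collagen called higher was Col13a1, a transmembrane collagen, at 2 to 2.4 TPM in Runx1KO and listed at 0 in the other 6 libraries. Among 17 tested genes of mesenchymal matrix and cytoskeleton 5 were called lower and 1 higher (median -0.69). They include Fn1, fibronectin, with 18 ± 0.351 TPM in Runx1KO, 97.3 ± 7.28 in ZebDKO and 52.6 ± 3.43 in control, and Vcan, the proteoglycan versican, at 0, 0 and 0.1 TPM in Runx1KO and 12.2, 14 and 10.7 in ZebDKO. Of 27 matrix proteases and inhibitors 9 were called lower and 1 higher, 37 percent of the list beside 15.8 percent of all tested genes. Plau, the urokinase activator of plasmin, stood at 0.2, 0 and 0.1 TPM in Runx1KO, 9.4, 9.5 and 10.6 in ZebDKO and 4.1, 3.2 and 5.5 in control, with control between the lines. The 1 protease called higher was Adamts1, at 302 ± 6.47 TPM in Runx1KO, 81.9 ± 2.29 in ZebDKO and 130 ± 7.27 in control.

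Chemokine and cytokine genes were mostly lower in Runx1KO than in ZebDKO. Of 27 tested genes for chemokines, cytokines and complement, 15 were called lower in Runx1KO and 1 higher, with a median of -1.20. ZebDKO alone had moved in 5 of the called genes, the lines had moved in opposite ways in 5 and the same way in 4, and Runx1KO alone and neither line had moved in 1 each. Csf2, the growth factor GM-CSF, stood at 4.1, 2.6 and 4.1 TPM in Runx1KO, 242.1, 211.7 and 192.1 in ZebDKO and 5.3, 5.5 and 5.9 in control. ZebDKO alone was high for Csf2. Cxcl2, a chemokine that draws neutrophils, stood at 3.4, 4.1 and 7.4 TPM in Runx1KO, 255, 218.1 and 221.3 in ZebDKO and 13.3, 12.4 and 15.4 in control. Ccl20, which attracts cells with the receptor Ccr6, had 1.40 ± 0.265 TPM in Runx1KO, 31.7 ± 2.95 in ZebDKO and 4.70 ± 1.32 in control. For Cxcl2 and Ccl20 the control libraries lay between the lines without overlap. Lcn2, lipocalin 2, was the 1 gene called higher, at 194 ± 13.1 TPM in Runx1KO, 79.0 ± 2.52 in ZebDKO and 15.2 ± 1.70 in control. The differences were -5.57 for Csf2 (SE 0.15), -5.34 for Cxcl2 (SE 0.22), -3.77 for Ccl20 (SE 0.10) and 1.28 for Lcn2 (SE 0.052), with adjusted p of 6.68e-07 or below for Csf2, Ccl20 and Lcn2 and 7.41e-07 for Cxcl2 by limma.

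Nfkbia and Tnfaip3, which encode inhibitors of NF-kB and were picked after their values had been seen, averaged 264 and 55.8 TPM in Runx1KO against 1479 and 408 in ZebDKO, with 220 and 58.3 in control. Vcam1, an adhesion molecule for leukocytes, stood at 3, 2 and 2.5 TPM in Runx1KO, 138.1, 132.6 and 114.2 in ZebDKO and 31.1, 30.1 and 31.8 in control. Of 54 tested genes for interferon response and antigen presentation, 8 were called lower and 2 higher (median -0.11). The lower and higher counts were 13 and 1 after median-ratio scaling, 10 and 7 with a pseudocount of 0.1, 9 and 5 with one of 0.5, and 9 and 4 without Runx1KO replicate 1. Irf1, a transcription factor induced by interferon, had 43.9 ± 4.46 TPM in Runx1KO, 432 ± 20.7 in ZebDKO and 99.3 ± 6.49 in control, and Cxcl10 had 22.6 ± 0.608, 340 ± 24.9 and 138 ± 16.4. Ifngr1, a subunit of the interferon gamma receptor, was closer to control in ZebDKO (148 ± 7.51 against 171 ± 5.95 TPM) and lower in Runx1KO (61.9 ± 0.721). The 2 called higher, Mx2 and Ifit1, stayed at or under 2.9 TPM in every library, and Ifit1 (1.02) fell under the 2-fold limit after median-ratio scaling (0.96) and without Runx1KO replicate 2, Runx1KO replicate 3 or ZebDKO replicate 2 (0.91 to 0.98). Ptprc, the pan-leukocyte marker, was listed at 0 in all 9 libraries.

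Epithelial genes, the known province of Zeb repression, were not simply shared. The study also names examples of genes that rise when Zeb repression is lost, either as Zeb targets or through Grhl2. Among them it describes Cldn4, Cgn and Ovol1 as Grhl2 targets and Pard6b as an already known Zeb1 target. These 7 genes included 4 called higher in Runx1KO than in ZebDKO and 0 called lower by limma (at an unadjusted p under 0.05 all 7 differed, 1 of them, Cgn, in that direction), with a median of 1.20, against 9.20 percent called higher among all tested genes. Apart from Pard6b they were drawn from Runx1KO and ZebDKO cells of this series, and the set is not independent evidence. Cldn4, a tight junction claudin, stood at 233.8, 223.8 and 237.2 TPM in Runx1KO, 50.3, 45.9 and 45.7 in ZebDKO and 0, 0 and 0.4 in control. Both lines were far above the control and Runx1KO the further. Grhl2, a factor that drives epithelial genes, stood at 5, 5 and 4.9 TPM in Runx1KO, 1.1, 1.4 and 0.9 in ZebDKO and 0.1 in each control library. Every ZebDKO library was thus above the control for Grhl2. At this low level the rise fell short of the limit on log2(TPM+1), so Grhl2 was classed as moved by Runx1KO alone. Klf2 had 377 ± 11 TPM in Runx1KO, 106 ± 4.97 in ZebDKO and 75.2 ± 4.56 in control, and Ovol1, a repressor of mesenchymal genes, 3 ± 0.458, 0.733 ± 0.0577 and 0.733 ± 0.306, so that the ZebDKO level of Ovol1 was within the control spread. The study differs on some of these genes. It reports Ovol1 as upregulated in the RNA-seq of both lines. By RT-qPCR, a PCR measure of RNA, it reports a similar rise of Pard6b, Grhl2 and Itgb4 in both. Pard6b, Itgb4 and Cgn were not called, and Cgn, the junction protein cingulin, was higher in ZebDKO (86.6 ± 2 TPM) than in Runx1KO (53.3 ± 1.44), both far above the control (6.20 ± 0.436).

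Keratins and adhesion genes parted in both directions. Among 23 tested genes of desmosomes, adherens junctions and keratins 6 were called higher and 5 lower (5 and 5 after either scaling), and among 24 of tight junctions and polarity 7 higher and 4 lower. Krt19, a keratin of simple epithelia, stood at 87, 87.5 and 86.6 TPM in Runx1KO, 5, 4.4 and 4.2 in ZebDKO and 0.6, 0.6 and 0.8 in control. Krt7, another keratin of simple epithelia, was the reverse, at 15, 14.9 and 14.9 TPM in Runx1KO, 144, 139.4 and 136.4 in ZebDKO and 1.2, 1.2 and 1.1 in control. Krt17, a keratin of basal and stressed epithelium, stood at 3.5, 4.6 and 3.8 TPM in Runx1KO and 137.3, 131.7 and 143.8 in ZebDKO. Each line was thus above the control for Krt19 and Krt7, with a different line highest for each. Epcam, the epithelial cell adhesion molecule, was listed at 0 in all control and all Runx1KO libraries and stood at 28.3, 26.7 and 28.8 TPM in ZebDKO. St14, the membrane protease matriptase, likewise had 3.87 ± 0.306 TPM in ZebDKO and 0.433 ± 0.115 in Runx1KO. In the other direction Cldn9, a claudin, had 70.5 ± 3.60 TPM in Runx1KO and 3.93 ± 0.702 in ZebDKO, and Pkp3, a desmosomal plakophilin, 33.5 ± 0.173 and 12 ± 0.551. The differences were 3.99 for Krt19, -3.14 for Krt7, -4.81 for Krt17, 3.87 for Cldn9 and 1.41 for Pkp3, with adjusted p of 2.11e-07 or below by limma. Of 20 tested genes of hemidesmosomes and basement membrane only Itga6 was called, at 52.5 ± 2.74 TPM in Runx1KO and 18.7 ± 0.954 in ZebDKO. Of 14 epithelial transcription and splicing factors 4 were called higher (Grhl2, Ovol1, Grhl1 and Tfap2a). The call of Grhl1 was lost under median-ratio scaling (0.94) and quantile normalization (0.82), and that of Tfap2a under quantile normalization (0.92).

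The promoters of 3 genes from this group are shown because CAGGTG, the E-box that Zeb proteins bind, was found in each. Promoters of the other genes named above are not shown, and the 3 do not stand for the group. The sequences are those of RefSeq (GRCm38.p6), from 250 bases before to 50 after a start, and capitals mark CAGGTG or its complement CACCTG.
Cldn4, chr5:134946885-134947184, minus strand: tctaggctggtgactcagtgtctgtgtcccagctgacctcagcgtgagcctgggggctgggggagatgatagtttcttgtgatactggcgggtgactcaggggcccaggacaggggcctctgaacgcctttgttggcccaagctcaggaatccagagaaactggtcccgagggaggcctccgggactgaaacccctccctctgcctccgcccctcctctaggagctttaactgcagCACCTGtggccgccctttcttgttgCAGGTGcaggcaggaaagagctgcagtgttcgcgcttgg
Epcam, chr17:87635729-87636028, plus strand: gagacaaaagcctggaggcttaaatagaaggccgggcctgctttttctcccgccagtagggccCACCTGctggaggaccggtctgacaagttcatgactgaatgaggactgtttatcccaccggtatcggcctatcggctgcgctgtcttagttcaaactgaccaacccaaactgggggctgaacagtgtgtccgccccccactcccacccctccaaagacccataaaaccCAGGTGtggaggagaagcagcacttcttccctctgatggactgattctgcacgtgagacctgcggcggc
Krt7, chr15:101412153-101412452, plus strand: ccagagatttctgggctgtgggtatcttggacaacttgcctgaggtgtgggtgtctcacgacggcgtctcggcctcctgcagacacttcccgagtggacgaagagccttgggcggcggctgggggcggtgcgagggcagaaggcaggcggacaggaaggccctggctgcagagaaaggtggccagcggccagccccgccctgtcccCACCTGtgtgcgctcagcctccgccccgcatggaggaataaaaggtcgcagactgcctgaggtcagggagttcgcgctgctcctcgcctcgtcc

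On either strand CAGGTG was in the promoter window of 17.3 percent of the 10076 tested genes with an entry and in 20.2 percent of all 32851 windows of that length. In genes higher in Runx1KO the share was 28.9 percent of 294 genes for which Runx1KO alone had moved, 34.2 percent of 79 for which both lines had moved the same way and 14.8 percent of 256 for which ZebDKO alone had moved. In genes lower in Runx1KO it was 16 percent of 162 for Runx1KO alone, 23.2 percent of 228 for ZebDKO alone and 20 percent of 70 for both the same way. CAGGTA, a related E-box, was in 8.37 percent of windows of tested genes, in 10.2 percent for genes higher by Runx1KO alone and in 20.3 percent for those higher in both. TGTGGT, the core of the Runx site, was in 12.3 percent of windows of tested genes and in 12.3 percent of those lower by Runx1KO alone. It was in 16.3 percent of those higher by Runx1KO alone, 17.7 percent of those higher in both lines and 7.14 percent of those lower in both. These are matches of letters in a short window and no enrichment was tested.

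Among the genes highest in Runx1KO relative to ZebDKO were several that are silent or nearly so in mK4. Lypd5, a membrane protein of the Ly6 family, stood at 60, 58.7 and 56.8 TPM in Runx1KO, 1, 0.9 and 0.6 in ZebDKO and 0.5, 0.3 and 0.1 in control. S100a14, a calcium-binding protein of epithelia, had 52.1 ± 1.82 TPM in Runx1KO, 1.03 ± 0.208 in ZebDKO and 0.133 ± 0.0577 in control. Mesp2, a transcription factor of somite formation, stood at 28.4, 29.6 and 28.7 TPM in Runx1KO and at most 0.2 in ZebDKO. In these genes no ZebDKO library reached 2 TPM. Rhox2d and Rhox2h, homeobox genes of an X-linked cluster of near-identical copies to which reads cannot be assigned with certainty, stood at 18.4 to 20.2 and 28.3 to 33 TPM in Runx1KO, and in ZebDKO Rhox2d was listed at 0 and Rhox2h at 0, 0.4 and 0.2. Psca, Slc2a3 and Unc13d were above the control in both lines and far higher in Runx1KO. Slc2a3, a glucose transporter, stood at 94.9, 95.4 and 88.5 TPM in Runx1KO, 2.9 in each ZebDKO library and 0, 0 and 0.2 in control. The differences were 5.03 for Lypd5, 4.71 for S100a14, 4.77 for Mesp2, 4.74 for Rhox2h and 4.59 for Slc2a3, with adjusted p of 1.17e-07 or below by limma.

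Of 33 tested genes of glycolysis and the hypoxia response 6 were called higher and 4 lower (median -0.12), a balance that turned to 5 and 7 after median-ratio scaling and 5 and 6 after quantile normalization. Besides Slc2a3, Car9, a carbonic anhydrase induced by hypoxia, stood at 64.9, 59.4 and 62 TPM in Runx1KO, 3.6, 3.7 and 3.8 in ZebDKO and 0.2 in each control library. Ndrg1, another hypoxia-responsive gene, was the reverse, with 193.7, 187.3 and 203.1 TPM in Runx1KO, 1687.7, 1705.8 and 1770.9 in ZebDKO and 526.4, 521.3 and 545 in control. Egln3, a prolyl hydroxylase of the hypoxia-inducible factors, had 64.0 ± 3.18 TPM in Runx1KO and was at the control level in ZebDKO (175 ± 2.43 against 168 ± 2.41). The members therefore did not go one way. Among 28 genes of the unfolded protein and stress responses 4 were called higher and 1 lower. Nqo1, a detoxifying quinone reductase, had 219 ± 20.5 TPM in Runx1KO and 26.4 ± 1.87 in ZebDKO. The heat shock gene Hspa1b stood at 146.6, 152.2 and 79.2 TPM in Runx1KO and 22.1, 24.6 and 29.3 in ZebDKO, with 1 Runx1KO library well under the others. Mt2, a metallothionein, had 144 ± 19.7 TPM in Runx1KO, 588 ± 25.7 in ZebDKO and 1098.3, 1079.2 and 1116 in the control libraries.

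Signalling genes of the kidney rudiment divided by gene rather than by pathway. Of 33 tested Wnt pathway genes 10 were called higher and 7 lower, or 8 and 8 after median-ratio scaling and 7 and 7 after quantile normalization. Wnt4, the ligand that drives the mesenchyme to epithelium, stood at 34.1, 34.7 and 34.1 TPM in Runx1KO, 2.5, 2.5 and 2.9 in ZebDKO and 21.2, 21 and 22.2 in control. ZebDKO alone had moved for Wnt4 (difference 3.28, SE 0.058, adjusted p = 2.54e-08 by limma). Wnt5b, a ligand of the noncanonical branch, stood at 0.2, 0.1 and 0.1 TPM in Runx1KO and 2.6, 2.7 and 2.4 in ZebDKO, and Rspo3, which strengthens Wnt signals, was listed at 0 in all Runx1KO libraries and at 2.2, 2.2 and 2.1 in ZebDKO, with 17.4 to 19 in control. Apcdd1, an inhibitor of Wnt signalling and a Wnt target, had 19.6 ± 0.551 TPM in Runx1KO and 6.17 ± 0.987 in ZebDKO, both under the control (72.5 ± 5.80). Myc had 52.3 ± 3.67 TPM in Runx1KO and 184 ± 4.30 in ZebDKO. Of 40 genes of the TGF-beta, activin and BMP pathway 6 were called higher and 7 lower, or 4 and 9 after median-ratio scaling and 4 and 6 after quantile normalization. Bmp5, a ligand, stood at 0.1, 0.2 and 0.1 TPM in Runx1KO, 35.5, 38.3 and 35.8 in ZebDKO and 1.1, 1.3 and 1.8 in control. Tgfb2, a TGF-beta ligand, had 2.6 ± 0.361 TPM in Runx1KO, 22.1 ± 1.06 in ZebDKO and 17.0 ± 0.666 in control. Nog, a secreted BMP inhibitor, stood at 0.1, 0 and 0.4 TPM in Runx1KO and 9.9, 9.2 and 11.4 in ZebDKO, and Fst, an activin inhibitor, was at the control level in Runx1KO (22.2 ± 0.723 against 20.4 ± 1.31) and lower in ZebDKO (6.70 ± 0.346).

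Of 40 tested genes of Gdnf, FGF, PDGF, ErbB and Igf signalling 9 were called higher and 7 lower. The ErbB ligand Areg, amphiregulin, stood at 178.9, 143.2 and 156 TPM in Runx1KO, 9.4, 9.5 and 8.4 in ZebDKO and 31.8, 35.2 and 25.3 in control, in opposite directions from the control. Btc, another ErbB ligand, had 12.3 ± 1.14 TPM in Runx1KO and 0.6 ± 0.173 in ZebDKO. Pdgfb, a ligand of the PDGF receptors, had 73.7 ± 4.38 TPM in Runx1KO, at the control level (68.3 ± 1.52), and 410 ± 19.8 in ZebDKO. Fgf9 stood at 6 to 6.4 TPM in Runx1KO and 0.2 to 0.5 in ZebDKO, and was listed at 0 in control. Of 19 Notch pathway genes Dll1, a ligand, was called higher and Hes1, a target, lower, a balance of 1 and 1 that became 0 higher and 4 lower after median-ratio scaling and 0 and 2 after quantile normalization. Both calls stood near the 2-fold limit (1.13 and -1.004): Dll1 fell under it after either scaling (0.99 and 0.91), and Hes1 after quantile normalization (-0.93) and without Runx1KO replicate 1, Runx1KO replicate 2 or ZebDKO replicate 3 (-0.99 to -0.93). Of 10 tested genes of the metanephric mesenchyme 3 were called higher and 4 lower: besides Osr1 and Gdnf, both lower, Ncam1, an adhesion molecule, had 3.57 ± 0.231 TPM in Runx1KO and 14.4 ± 0.265 in ZebDKO, and Eya1 had 5.87 ± 0.404 TPM in Runx1KO and was at the control level in ZebDKO (17 ± 0.1 against 16.2 ± 0.379). Among those higher, Pax2, a transcription factor of the early kidney, had 470 ± 35.7 TPM in Runx1KO and 222 ± 13.5 in ZebDKO (difference 1.08, or 0.92 after median-ratio scaling), and Tmem100 stood at 4.3, 6 and 4.8 TPM in Runx1KO and was listed at 0 in the other 6 libraries. Of 36 axon guidance genes 3 were called higher and 7 lower, among them Ntn1, netrin 1, with 8.60 ± 0.889 TPM in Runx1KO and 59.9 ± 1.05 in ZebDKO, and Sema3c, a secreted semaphorin, with 142 ± 7.31 and 37.2 ± 0.777.

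Replication-dependent histone genes gave the largest block moved by ZebDKO alone. Of 57 tested 16 were called lower in Runx1KO and 2 higher. Hist1h2ap stood at 6.8, 8.2 and 10.1 TPM in Runx1KO, 1846.2, 1775.6 and 1876.8 in ZebDKO and 4.7, 5.5 and 6.1 in control, and Hist1h2ao and Hist1h2ag followed it with 1501 ± 42.6 and 440 ± 16.3 TPM in ZebDKO and at most 8.2 in the Runx1KO libraries. These H2A genes are near-identical copies among which reads cannot be assigned with certainty, and their RNAs lack a poly(A) tail, so the level measured depends on how RNA was selected. The study's methods state poly(A) isolation of RNA for control, Runx1KO and ZebDKO cells alike. The summed level of the 59 listed histone genes was 2178 to 2328 TPM in Runx1KO, 1872 to 2007 in control and 4410 to 4637 in ZebDKO, and whether the library preparation has a part in it was not tested. Other housekeeping groups were close between the lines. Of 77 ribosomal protein genes and 31 genes of cholesterol and fatty acid synthesis 0 were called by limma, with medians of 0.10 and -0.041, though 65 and 27 of them passed an unadjusted p under 0.05, and of 48 cell cycle and replication genes 3 were called higher, with a median of 0.043. Ccnd2, cyclin D2, had 61.5 ± 2.43 TPM in Runx1KO and 14.1 ± 1.27 in ZebDKO. Of 21 p53 target genes 3 were called higher and 1 lower, and Ccng1, cyclin G1, had 588 ± 15.9 TPM in Runx1KO and 244 ± 10.9 in ZebDKO, with 656 ± 29.6 in control. After median-ratio scaling the p53 list had 2 higher and 2 lower and the cell cycle list 2 and 1. After quantile normalization the p53 list had 2 and 1 and the cell cycle list 3 and 1. Of 15 imprinted genes 3 were called higher and 1 lower, the last being Plagl1, listed at 0 in Runx1KO and at 10.6, 11.9 and 13 in ZebDKO.

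Of the remaining lists, 25 AP-1, Egr and Kruppel-like factors held 3 higher and 6 lower calls. Jun had 1306 ± 17.3 TPM in Runx1KO and 435 ± 9.39 in ZebDKO, while its relative Junb had 2073 ± 76.3 and 4647 ± 174, with control between the lines for both. Of 27 actin and contractile genes 1 was called higher and 6 lower, Acta2 being listed at 0.2, 0.2 and 0.1 TPM in Runx1KO and 20, 20.9 and 21.7 in ZebDKO. Of 18 membrane protease and trafficking genes 4 were called higher and 4 lower, of 19 genes of nephron epithelium and ureteric bud 3 and 3, of 11 mesenchymal transcription factors 1 and 1 (Snai3 and Snai1), and of 5 genes of the renal stroma 1 was called, lower (Ntn1). Snai1 (-1.04) fell under the 2-fold limit without Runx1KO replicate 3 (-0.90) or ZebDKO replicate 3 (-0.94). The share called was near the 15.8 percent of all tested genes for the stress (17.9), p53 (19), interferon (18.5) and mesenchymal factor (18.2) lists. It was below that for the Notch (10.5), cell cycle (6.25) and hemidesmosome (5) lists. The Y-linked genes and Xist were not tested, since none reached 1 TPM.

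**Figure D3:**
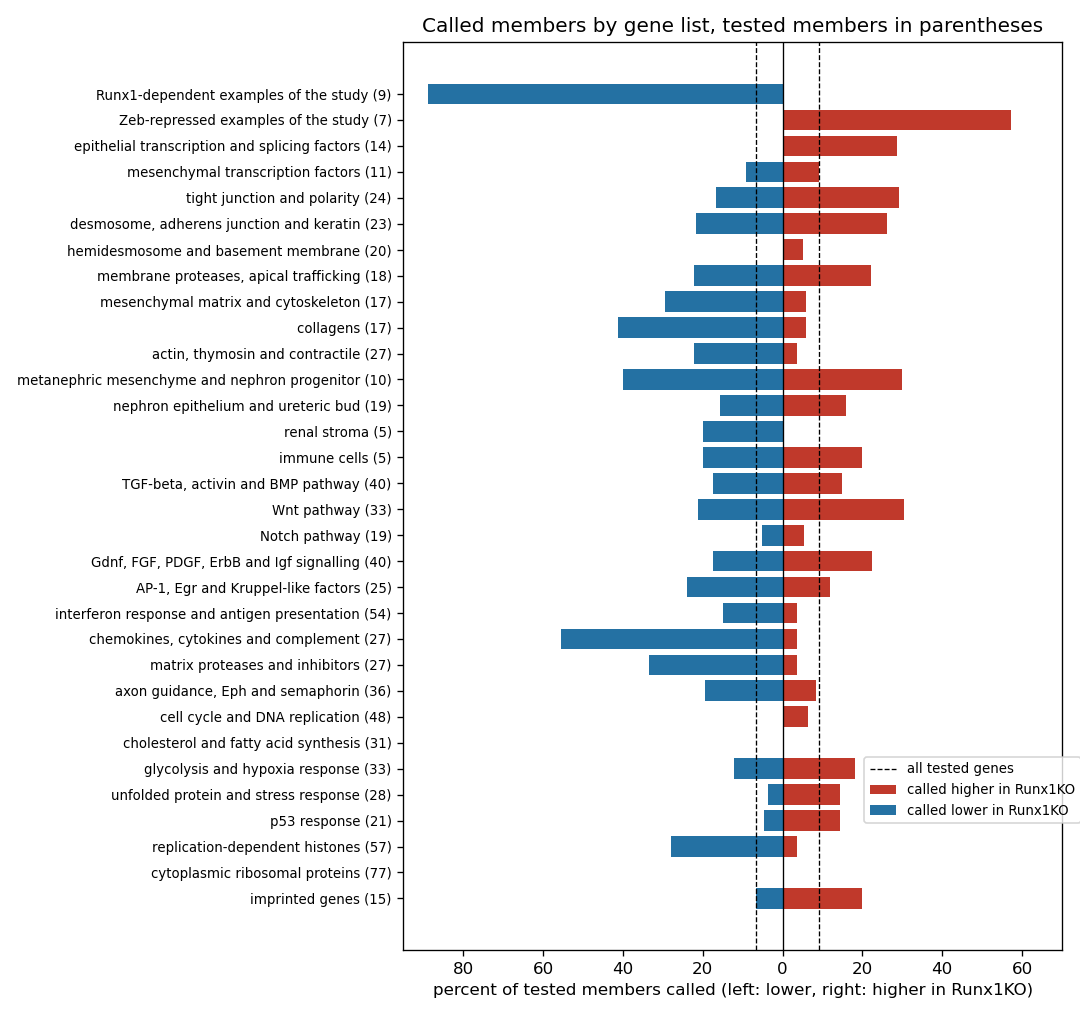
Bars give the percent of the tested members of each list called higher (right) or lower (left) in Runx1KO against ZebDKO, and dashed lines mark the 9.20 and 6.59 percent of all tested genes. Chemokines (15 of 27 lower) and collagens (7 of 17 lower) reach well past the dashed line, and cholesterol synthesis and ribosomal proteins have no bar.

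The called genes were next set beside the deposited ChIP-seq and ATAC-seq regions, which were made from control and Runx1KO cells only. Of the tested genes, 12254 could be placed on GENCODE vM1 (mm9), 93.7 percent. An ATAC-seq region that closes in Runx1KO lay within 50 kb of a transcription start of 38.6 percent of placed tested genes (95% Wilson interval 37.7 to 39.4). It did so for 73.9 percent (67.6 to 79.4) of 211 genes lower by Runx1KO alone, for 69.2 percent of 91 lower with both lines moved the same way and for 73.2 percent of 41 lower with the lines moved in opposite ways. It did so for 47.1 percent (41.5 to 52.7) of 306 genes lower because ZebDKO alone stood above the control. A region that opens in Runx1KO lay within 50 kb for 53.5 percent of tested genes, for 78.6 percent (74.0 to 82.5) of 355 genes higher by Runx1KO alone, for 91.7 percent (84.9 to 95.6) of 108 higher with both moved the same way and for 42.8 percent (37.5 to 48.3) of 320 higher because ZebDKO alone stood below. Shares of closing and opening regions, measured apart from RNA, thus differed between genes moved by Runx1KO and genes moved by ZebDKO, in the same Runx1KO line that defines those classes. A Runx1 ChIP-seq peak lay within 50 kb for 58.2 percent of tested genes and for 59.7 percent (53 to 66.1) of those lower by Runx1KO alone. In genes higher in Runx1KO the share was smaller, 48.2 percent (43.0 to 53.4) where Runx1KO alone had moved and 51.6 percent (46.1 to 57.0) where ZebDKO alone had. A smaller share was not particular to higher genes. Among lower genes it was 51.6 percent (41.5 to 61.6) with both lines moved the same way and 48.8 percent (34.3 to 63.5) in opposite ways. The share was 56.2 percent of genes lower by ZebDKO alone and 58.5 percent of those lower with neither moved. Intervals cover counting error only, neighbouring genes share regions, and no enrichment was tested.

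**Figure D4:**
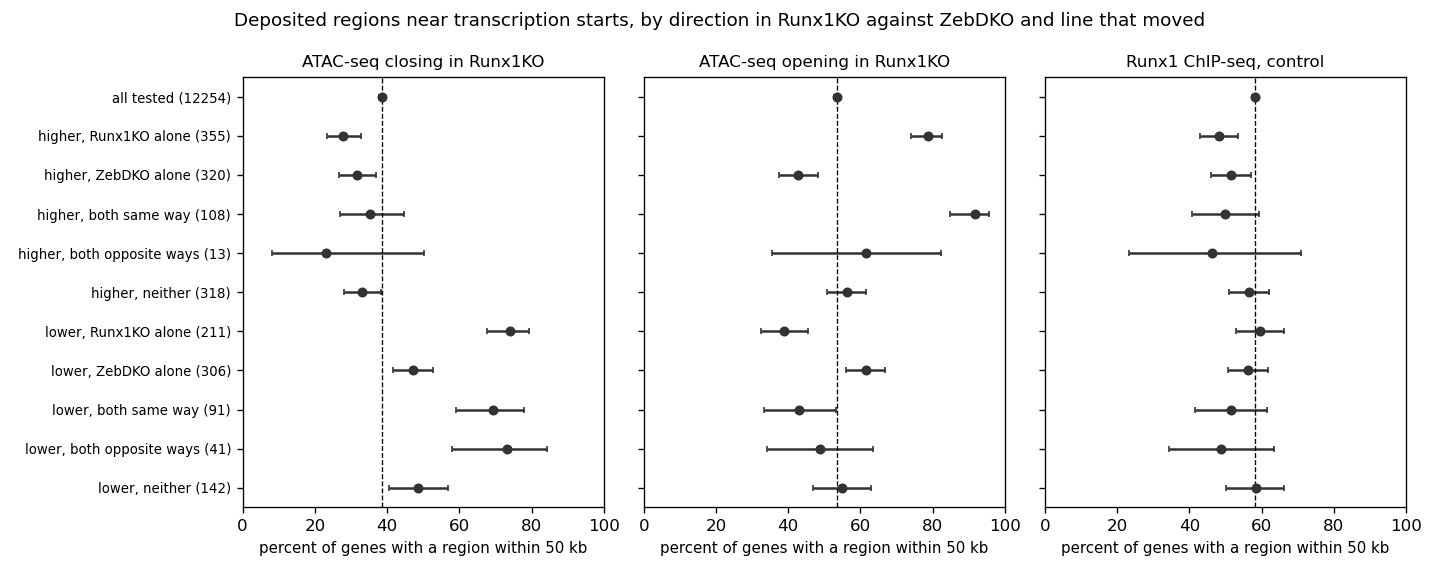
Points give the percent of genes with a deposited region within 50 kb of a transcription start, by direction in Runx1KO against ZebDKO and by the line that moved, with 95% Wilson intervals and the number of genes in parentheses; dashed lines mark all tested genes. Closing regions reach 73.9 percent for genes lower by Runx1KO alone and opening regions 91.7 percent for genes higher in both lines, while the Runx1 ChIP-seq shares run from 46.2 to 59.7 percent beside 58.2 percent of all tested genes.

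Runx1 peaks that lie in a closing region near genes lower in Runx1KO than in ZebDKO are shown as the middle 200 bases of the peak in mm9, plus strand. The 4 were chosen among such peaks that hold the Runx core, and the peaks near Adamts12 and Ntn1 and 1 of the pair near Wnt5b hold none. Many genes had no peak to show: no Runx1 peak lay within 50 kb of a start of Tmsb4x, Emb, Tnc, Ptgs2, Gdnf or Lef1. Peaks further away were not listed, and the study shows Runx1 binding at regions that close in Runx1KO around Gdnf, Tnc and Lef1. Capitals mark TGTGGT, the core of the Runx site, or its complement ACCACA. Of the 9977 Runx1 peaks examined 33.6 percent hold it in such a window. The Gxylt2 peak lies 3018 bases inside the gene from a start, the Igfbp4 peak 29677 bases downstream of one, and the Col27a1 and Ndrg1 peaks 31512 and 28841 bases upstream.
Gxylt2, chr6:100657668-100657867: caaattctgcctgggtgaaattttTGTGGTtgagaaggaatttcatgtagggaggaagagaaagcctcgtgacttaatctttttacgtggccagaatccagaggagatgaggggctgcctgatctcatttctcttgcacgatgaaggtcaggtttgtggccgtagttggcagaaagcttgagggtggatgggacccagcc
Igfbp4, chr11:98938203-98938402: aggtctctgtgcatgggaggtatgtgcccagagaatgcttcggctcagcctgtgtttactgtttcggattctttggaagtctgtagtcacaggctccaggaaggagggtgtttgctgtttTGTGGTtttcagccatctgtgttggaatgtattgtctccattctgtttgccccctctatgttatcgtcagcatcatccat
Col27a1, chr4:62843427-62843626: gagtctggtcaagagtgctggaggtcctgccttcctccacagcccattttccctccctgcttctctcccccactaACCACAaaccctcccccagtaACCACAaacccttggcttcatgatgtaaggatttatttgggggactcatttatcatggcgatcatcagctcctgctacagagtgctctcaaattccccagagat
Ndrg1, chr15:66829944-66830143: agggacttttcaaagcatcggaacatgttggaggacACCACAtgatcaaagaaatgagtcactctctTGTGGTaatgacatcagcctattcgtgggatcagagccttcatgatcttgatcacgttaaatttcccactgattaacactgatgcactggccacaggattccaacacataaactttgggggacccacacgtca

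A Runx2 peak of Runx1KO cells overlapped the Runx1 peaks shown for Gxylt2, Igfbp4 and Ndrg1 and not that of Col27a1. Col27a1, a fibrillar collagen gene, stood at 0.4, 0.6 and 0.4 TPM in Runx1KO, 7.2, 6.9 and 6.9 in ZebDKO and 2.3, 2.6 and 3.6 in control.

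Position along the genome separated the lines as well. The median difference between Runx1KO and ZebDKO was 0.61 over the 418 tested genes of chromosome 12, where 27.3 percent were called and 83.5 percent lay above 0, beside a median of 0.15, 15.5 percent and 60.8 percent over all placed genes. Relative to the control mean, the medians of chromosome 12 were 0.26 to 0.29 in the Runx1KO libraries and -0.28 to -0.22 in the ZebDKO libraries. Chromosome 16 had a median difference of 0.36, with Runx1KO libraries at 0.31 to 0.33 over the control, and chromosome 15 a median of -0.33, with ZebDKO libraries at 0.15 to 0.18 over it. The medians of the other chromosomes lay between -0.12 and 0.28. The medians of replicate libraries lay within 0.0597 of each other on every chromosome. The study describes the karyotype of parental mK4 cells as normal. A chromosome count of the knockout lines is not given in the sources used here, and copy number was not tested.

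**Figure D5:**
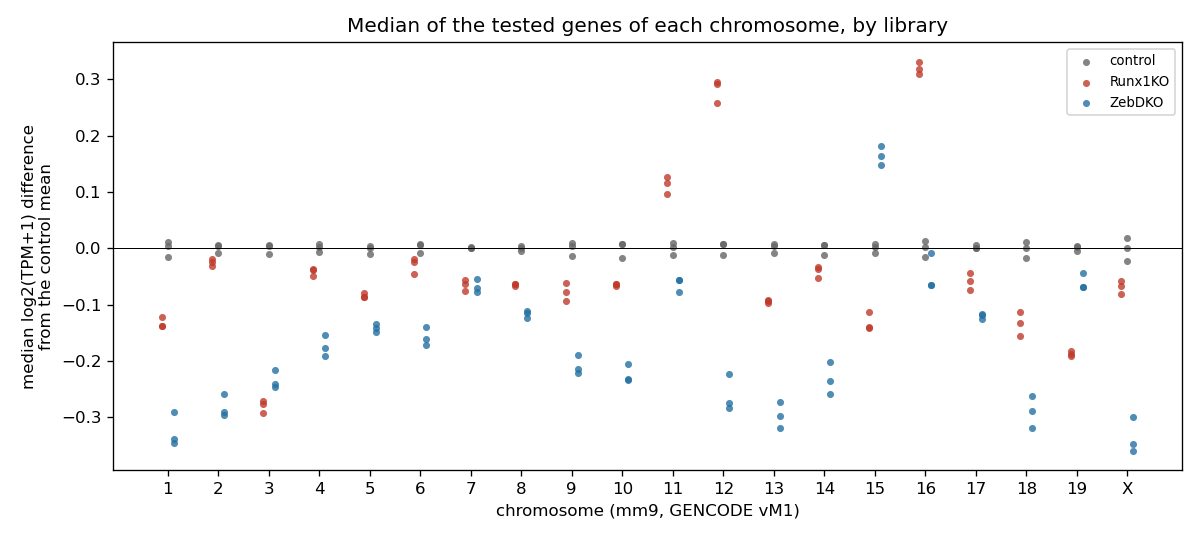
Each point is 1 library and gives the median, over the tested genes of a chromosome, of log2(TPM+1) minus the control mean. Runx1KO stands high on chromosomes 11, 12 and 16, ZebDKO is above 0 on chromosome 15 alone, and the 3 libraries of a line stay together.

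Runs of at least 5 neighbouring tested genes called in the same direction were listed after the data had been seen. There were 4, all higher in Runx1KO. At the end of chromosome 13 (chr13:119168917-120284277) Mrps30, Nnt, Paip1, 4833420G17Rik, 3110070M22Rik and Tmem267 stood together, with a median difference of 3.47. Nnt, a mitochondrial transhydrogenase, stood at 240.6, 242 and 247.4 TPM in Runx1KO, 28.3, 30.5 and 28.8 in ZebDKO and 33.3, 30.6 and 32.6 in control, and Paip1, which binds poly(A)-binding protein, at 396.6, 398.8 and 413.3, then 32.8, 33.1 and 30.1, then 38.8, 40.4 and 40.8. Emb, the gene nearly absent from Runx1KO, is the tested gene next to this run (chr13:118009432-118062905), and Parp8 on its other side stood at 71.3, 68.6 and 70.2 TPM in Runx1KO and 72.7, 75.4 and 70.1 in ZebDKO (difference -0.053, adjusted p = 0.207 by limma). The gene nearly absent from Runx1KO and the genes high in it thus lie side by side. Another run on the X chromosome held Rhox4a, Rhox2d, Rhox2g, Rhox4g and Rhox2h (median 3.20, Runx1KO alone), and one further along it held 8 genes from Gm15080 to Gm15091, Luzp4 among them (median 2.87, with medians of 2.67 for Runx1KO and -0.57 for ZebDKO from control). The run on chromosome 2 held the zinc finger genes Zfp120 and Zfp937 with Gm14139, Gm14124 and 3300002I08Rik, and there ZebDKO stood below the control, with a median of -1.35 against -0.052 for Runx1KO, though Runx1KO was above it for Gm14139 and Gm14124. Genes of the X and chromosome 2 runs are members of repeated families among which reads cannot be assigned with certainty.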

How the data were processed

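Transcriptomes of cultured mK4 sublines were measured by RNA-seq in triplicate. Per the study's methods and the submitters' processing notes, the authors trimmed reads with Trim Galore, aligned them with STAR to mm9, counted them with featureCounts 1.6.2 and deposited TPM values for 9 libraries in 1 table, rounded to 1 decimal. Whether counting used strand is not stated in the sources used here, and TPM keeps no depth, so the reads behind a value are unknown. A separate table of 6 control and Runx1KO libraries was scaled apart, holds no ZebDKO and was not used. From the deposited region lists (MACS2 peaks per the processing notes) the mm9 coordinates were taken, and the fold-change and -log10 columns the authors deposited beside them were not used. No other sample columns were present in the TPM table.

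From the TPM, log2(TPM+1) was tested with limma 3.58.1 (R 4.3.3) over the 3 Runx1KO and 3 ZebDKO libraries, two-sided, with a trend in the prior variance, on the 13071 genes that reached 1 TPM in 3 or more of these libraries, and p-values were adjusted by the Benjamini-Hochberg method over all of them. Differences are Runx1KO minus ZebDKO on that scale, which understates folds of low genes. Genes listed at 0 in a whole line are given by library, with no fold. Control libraries stayed out of the fit. The script was tested on simulated data. Genes were placed by symbol or synonym on GENCODE vM1, and promoters were taken from RefSeq (GRCm38.p6). Python 3.11.15 with numpy 2.4.6, pandas 2.3.3 and matplotlib 3.10.9 did the rest.

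The members, gene lists and alternatives were chosen with earlier results of these data known. Named genes were the targeted genes and their partners, the study's examples, the 12 largest differences in each direction, the 6 largest in each class of which line moved (for these, at least 10 TPM in the higher group and libraries that do not overlap) and up to 4 called members of each list in each direction. Some genes that met this rule are left out of the text, and 1 gene is not reported here. Sall1 and Hoxa11 are marker genes, and the neighbours in the runs, Nfkbia and Tnfaip3 were added after their values were seen. Replicates are wells of a line, so p-values measure the spread between wells only.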

Additional observations from a re-analysis of the deposited data

Results flagged for a closer look

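In 17 named genes the means of both lines lay more than 1 from the control on the log2 scale, in opposite directions, with every Runx1KO library on one side of the control libraries and every ZebDKO library on the other. Genes with smaller opposite shifts, such as Jun and Junb, are not among them. The opposite movement was not tested by itself, though limma compared the lines directly, and both movements share the 3 control libraries. Lower in Runx1KO than in ZebDKO were Tmsb4x (-9.20), Cxcl2 (-5.34), Gdnf (-5.21), Vcam1 (-5.21), Bmp5 (-5.05), Cmtm8 (-4.84), Acta2 (-4.23), Cxcl10 (-3.85), Ccl20 (-3.77), Adamts12 (-3.33), Plau (-3.30), Irf1 (-3.27), Ndrg1 (-3.14), Mmp10 (-3.12) and Col27a1 (-2.45), as log2 differences. Areg (3.98) and Mascrna (4.25) were higher. Named genes are a selected part: of all 59 called genes with opposite movement, 43 were lower in Runx1KO and 16 higher. Mmp10 was listed at 0 in all Runx1KO libraries, so that its fitted difference depends on the pseudocount and is no fold. It stood at 1.4, 1.3 and 2.3 TPM in control and 8.2, 7.6 and 7.3 in ZebDKO. Mascrna, a small RNA cut from the Malat1 transcript, stood at 192.3, 145.7 and 167.6 TPM in Runx1KO, 11.4, 13.1 and 3 in ZebDKO and 35.4, 37.8 and 51.1 in control, and it is far shorter than an mRNA. Cmtm8, a membrane protein, stood at 0.5, 0.4 and 0.7 TPM in Runx1KO and 46.4, 42.2 and 40.3 in ZebDKO, and Adamts12, a secreted protease, at 0.4, 0.6 and 0.4 and 14, 14.2 and 13. Groups of 3 libraries are too small for a search for single outlying libraries.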

How the results depend on the processing

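The counts of called genes (1203 higher, 862 lower) moved by over 1.5 times in 2 settings: a filter of at least 5 TPM left 566 lower (in the Wnt list 7 higher and 3 lower, in the interferon list 0 and 7), and a limit of 1.3-fold gave 4376 higher and 2404 lower. Leaving out each replicate in turn gave 1175 to 1247 higher and 847 to 879 lower. Of the calls, 1780 of 1971 after median-ratio scaling and 1740 of 1907 after quantile normalization were shared with the 2065 reported. With the replicate number as a block the counts were 1207 and 864, but same-numbered libraries did not deviate together (correlations of -0.010, 0.029 and -0.018), so the numbers do not pair the samples. Among the named genes 9 lost the 2-fold limit under median-ratio scaling, 9 under quantile normalization and 1 to 4 when a replicate was left out, while their direction held except for Runx2, which was not called and went from 0.14 to -0.095 under quantile normalization (adjusted p = 0.208 by limma with Benjamini-Hochberg adjustment); the cause was not tested. Genes moved by Runx1KO alone numbered 405 to 661 and by ZebDKO alone 603 to 907 over the settings tried. Shares of genes near a region grew with the window: at 10 kb a closing region lay near 12.9 percent of tested genes and 59.7 percent of those lower by Runx1KO alone, and at 200 kb near 77.3 and 92.9 percent. TPM gives no read depth, so counting error behind low values is unknown. The lines differ in clone and in the described library preparation, which cannot be told apart from genotype here.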

Other observations

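Of the 2065 called genes, 64 were listed at 0 in every Runx1KO library and 18 in every ZebDKO library. Over the 24953 genes of the table, too, each Runx1KO library listed more genes at 0 (9236 to 9254) than any ZebDKO library (8268 to 8744). The heat shock gene Hspa1a, like Hspa1b, was lower in Runx1KO replicate 3 (18.7 TPM) than in replicates 1 and 2 (36.3 and 40.1), and all 3 lay above the ZebDKO libraries (7.6, 8 and 9.7).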
